A study of Caenorhabditis elegans with 12 samples.

Results

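The cuticlin and cuticlin-like genes of *Caenorhabditis elegans* were taken here as every gene whose symbol starts with *cut-*, *cutl-* or *noah-* in a table of normalized RNA-seq values. The rule found 37 genes among the 19089 genes of the table, of which 6 are *cut-* genes, 29 are *cutl-* genes and 2 are *noah-* genes. All 37 are protein coding in the Ensembl annotation of the WBcel235 genome, and their longest products range from 215 residues (*cut-2*) to 1052 residues (*noah-1*). They lie on all 6 chromosomes, with 8 on I, 9 on II, 4 on III, 6 on IV, 5 on V and 5 on X. The genes the results turn on most lie at chrV:13414949-13416064 on the plus strand (*cut-2*), chrIV:14091254-14096626 on the plus strand (*noah-2*), chrII:8445169-8446831 on the minus strand (*cut-3*) and chrII:10436136-10440087 on the plus strand (*cut-4*).

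Cuticlins are the part of the worm cuticle that stays insoluble when the collagens have been dissolved, and they are secreted by the epidermis and the seam cells. Most of them carry a zona pellucida domain, a module by which secreted proteins polymerize into fibres and sheets, and several are needed for the alae, the ridges that run along the body of some stages. The name "zona pellucida cuticle genes" does not cover every gene of the rule, because CUT-2 is a cuticlin without that domain.

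All worms were of the CL2006 strain, in which the muscle promoter *unc-54* drives human Aβ, the peptide that aggregates in Alzheimer's disease. ABPS and AB0S worms were fed bacteria that express Aβ RNAi, and EVPS and EV0S worms were fed bacteria with the empty vector (EV). ABPS and EVPS worms were given the 5MER peptide daily from the first day of adulthood, whereas AB0S and EV0S worms were given M9 buffer. Each library came from a pool of whole worms taken at day 6 of adulthood after daily removal of progeny, and each group had 3 repeats, 12 libraries in all. In RNA from whole worms, fewer cells of a type and less RNA per cell cannot be told apart.

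The values are read counts per gene that the authors scaled by size factors and corrected for the effect of the repeats, and they are called normalized values below. They summed to between 24082771 and 29142842 per library, and the number of reads behind them is unknown. On the first principal component of 15516 genes, which held 54.5% of the variance, EV0S repeat 3 lay at 25.05, whereas EV0S repeats 1 and 2 lay at -36.77 and -33.94. ABPS repeat 2 lay at 26.29 and ABPS repeats 1 and 3 at -3.97 and -24.19. The AB0S libraries lay between 36.13 and 44.86, so that these 2 libraries stood nearer to AB0S than to their own groups. The markers of body wall muscle, intestine, pharynx, neurons, germ line and epidermis were detected in all 12 libraries. Markers of the zygotic embryo, 13 genes, also summed to between 784 and 1188 per library. The part of embryo RNA in the values of the family was not tested.

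Levels of the family spanned a wide range. The mean over 12 libraries was at least 1000 for 3 genes, from 100 to 1000 for 17, from 10 to 100 for 14 and below 10 for 3. Per kb of exon, *cut-2*, which encodes a short cuticlin that is cross-linked through its tyrosines, was the highest with a mean of 2948 (range 1968 to 4803). *noah-2* and *noah-1*, both homologues of the *Drosophila* NompA protein and parts of the apical matrix of the embryonic and molting epidermis, followed with 1208 (847 to 1706) and 1054 (790.2 to 1459.5) per kb. The lowest *cut-2* library was above the highest *noah-2* library on this scale, and *noah-2* was above *noah-1* in all 12 libraries although their ranges overlapped.

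*cut-3* (599 per kb, range 163 to 1563) and *cutl-16* (404 per kb, range 234.9 to 701) came next. *cut-3* was the higher of this pair in 8 of 12 libraries, so that their order was not the same in every library. The other 32 genes averaged between 2.05 per kb (*cutl-1*) and 161 per kb (*cutl-15*). The dauer cuticlin gene *cut-1*, which is used in the cuticle of the dauer larva, was next to the bottom with 3.89 per kb. An annotated exon of another gene overlaps the exons of 11 of the 37 genes, on the opposite strand for 10 of them, including *cut-3*, *cutl-15* and *cutl-18*, and on the same strand for *cutl-20*. The shared exon bases are 9 of 1272 for *cut-3*, 66 of 1482 for *cutl-15*, 84 of 2522 for *cutl-18* and 221 of 1281 for *cutl-20*. Whether reads were counted by strand is not stated, and the values of these 11 genes are uncertain to that extent.

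The libraries in which the family was high were few. EV0S repeat 3 held the highest value of all 12 libraries for 16 of the 37 genes and AB0S repeat 1 for 14, and no gene was at its highest in an EVPS or ABPS library. EVPS repeat 1 was the lowest library for 15 genes. Within EV0S, repeat 3 was the highest library for 31 of 37 genes (83.8%, against 42.6% of all genes), and its value was a median of 1.67 times the mean of the other EV0S libraries. This ratio was largest for *cut-3* (5.29), *cutl-13* (4.41) and *cutl-1* (3.94). It was below 1 for 5 genes, namely *cut-4* (0.664), *cutl-7* (0.860), *cutl-5* (0.909), *cutl-4* (0.909) and *cutl-15* (0.923).

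The gene *cutl-13* is set beside *cut-3* here, a pair chosen after the values were seen, and the likeness of the other genes to *cut-3* was not measured. *cut-3* varied 9.59-fold and *cutl-13* 8.03-fold between their lowest and highest libraries, while the ratio of *cut-3* to *cutl-13* stayed between 19.5 and 26.9. *cutl-13* had 21.4, 38.9 and 12.3 in ABPS, 66.8, 39.6 and 58.5 in AB0S, 10.2, 14.2 and 11.4 in EVPS and 17.1, 20.2 and 82.3 in EV0S. Both genes were thus highest in EV0S repeat 3, followed by AB0S repeats 1 and 3, with AB0S repeat 2 and ABPS repeat 2 close together after them. Most of the family varied less, with highest-to-lowest ratios between 1.85 (*noah-1*) and 6.30 (*cutl-4*) outside *cut-3*, *cutl-13* and the very low *cutl-1* (12.1-fold).

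The first comparison asked what the peptide did in worms that express Aβ (EVPS against EV0S). Most of the family had lower values with the peptide, and *cut-2* and *noah-2* were the genes that passed the test. *cut-2* had normalized values of 1824, 2207 and 2245 in EVPS, against 3058, 3268 and 4453 in EV0S. All EVPS libraries lay below all EV0S libraries, and the difference on the log2(value + 1) scale was -0.77 (SE 0.19, limma adjusted p = 0.0703).

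*noah-2* had 2174, 2422 and 2688 in EVPS, against 3005, 3265 and 4048 in EV0S, again without overlap, and its difference was -0.50 (SE 0.14, limma adjusted p = 0.0868). *noah-1* had 2999.8, 3306 and 3343 in EVPS, against 3875, 4249.8 and 5098 in EV0S. These groups did not overlap either, but the log2 difference of -0.45 (SE 0.14, limma adjusted p = 0.114) missed the threshold of 0.1. The *noah* genes kept nearly the same proportion to each other, with *noah-1* at 1.24 to 1.38 times *noah-2* over the 12 libraries.

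For the alae genes the EVPS libraries stood against a wide EV0S group, and none of them passed the test. *cut-3*, which is needed for the alae of the first larval stage, had 207, 278 and 302 in EVPS, against 351, 399.7 and 1988 in EV0S. The groups did not overlap, and 1 EV0S library stood far above the rest. The log2 difference was -1.33 (SE 0.61, limma adjusted p = 0.274), and it was -0.41 without EV0S repeat 3.

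*cut-5*, needed for the alae of the first larval stage and of the dauer larva, had 38.6, 37.5 and 43.5 in EVPS, against 35.5, 46.2 and 134 in EV0S. *cut-6*, which acts in dauer body shape and alae, had 78.3, 76.7 and 71.1 in EVPS, against 91.4, 76.2 and 249 in EV0S. Both overlapped between the groups, and only EV0S repeat 3 was high. Their log2 differences were -0.59 (SE 0.38, limma adjusted p = 0.453) for *cut-5* and -0.67 (SE 0.45, limma adjusted p = 0.472) for *cut-6*, and without EV0S repeat 3 they were -0.01 and -0.04. *cut-1* had 8.11, 8.45 and 5.97 in EVPS, against 4.90, 3.31 and 8.14 in EV0S, which overlapped at a very low level (log2 difference 0.46, SE 0.41, limma adjusted p = 0.616).

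Over the family, 2 genes were lower and 0 higher at an adjusted p below 0.1, while 1.82% of all 19089 genes were lower and 5.51% higher. At an unadjusted p below 0.05 there were 11 genes, all lower, as were 8% of all genes. The log2 difference was below 0 for 33 of 37 genes, with a median of -0.43, whereas over all genes it was below 0 for 57.6%, with a median of -0.05. The 4 genes above 0 were *cut-1*, *cutl-1*, *cutl-7* and *cutl-19*, with means over all libraries of at most 15.5. In 12 genes (*cut-2*, *cut-3*, *noah-1*, *noah-2*, *cutl-4*, *cutl-13*, *cutl-15*, *cutl-18*, *cutl-22*, *cutl-26*, *cutl-27* and *cutl-28*) all EVPS libraries lay below all EV0S libraries, as in 12.4% of all genes. In 0 genes of the family all EVPS libraries lay above, against 14.9% of all genes.

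Whether the 2 genes passed the threshold depended on which libraries were in the fit, while their differences kept their sign. With 1 library left out, *cut-2* ranged over -0.93 to -0.63 and *noah-2* over -0.62 to -0.39. No gene of the family was called without any 1 of the EVPS libraries, without EV0S repeat 1 or 2, or without AB0S repeat 3 or ABPS repeat 1 or 2, which are outside the comparison but share its estimate of the spread. Without AB0S repeat 1, 4 genes were called, and *cut-2* alone was called, at -0.65, without EV0S repeat 3. The shares of all genes called in these fits are not given here, so the counts cannot be read as results about the family. The median of the family without EV0S repeat 3 was -0.17, with 29 of 37 genes below 0. The summed value of 9 epidermis and seam markers was 13043 to 13710 in EVPS, against 13147, 14020 and 18353 in EV0S repeats 1 to 3, so that the groups overlapped and EV0S repeat 3 stood out here too. Of the 9 markers 6 were below 0 and 3 above, 1 (*wrt-2*) was called lower and 0 higher. The part of these markers in the result was not tested.

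**Figure D1:**
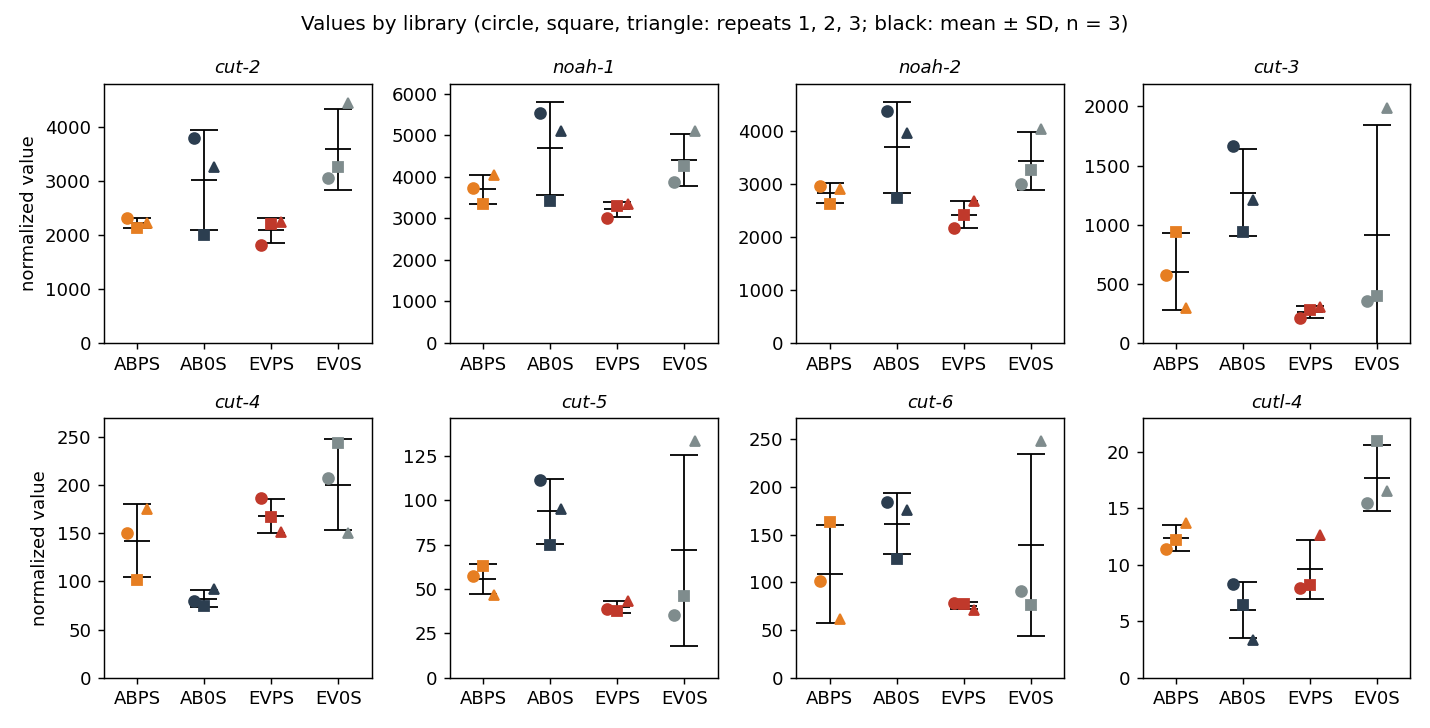
Normalized values (vertical axes, from 0) of 8 genes by group, with 1 symbol per repeat and the mean ± SD (n = 3) in black, the bar of *cut-3* in EV0S being cut off at 0. For *cut-2* and *noah-2* every EVPS library is below every EV0S library, for *cut-3*, *cut-5* and *cut-6* EV0S repeat 3 is far above the other EV0S libraries, and *cut-4* and *cutl-4* are lowest in AB0S.

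The second comparison was that of the peptide in worms in which Aβ was knocked down (ABPS against AB0S). Most of the family again had lower values with the peptide, with *cut-4* and *cutl-4* on the other side, and 0 genes passed the threshold. *cut-3* had 576, 941 and 293 in ABPS, against 1667, 938 and 1208 in AB0S. The groups overlapped by a narrow margin, since ABPS repeat 2 lay just above AB0S repeat 2, and the log2 difference was -1.19 (SE 0.61, limma adjusted p = 0.359).

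*cut-5* had 57.4, 63.2 and 46.5 in ABPS, against 112, 75.0 and 95.1 in AB0S, without overlap (log2 difference -0.73, SE 0.38, limma adjusted p = 0.363). *cut-6* had 102, 163 and 61.5 in ABPS, against 184, 125 and 176 in AB0S, with overlap at ABPS repeat 2 (log2 difference -0.65, SE 0.45, limma adjusted p = 0.479). *cut-1* had 3.71, 6.29 and 3.19 in ABPS, against 8.46, 3.65 and 5.69 in AB0S, and the groups overlapped (log2 difference -0.35, SE 0.41, limma adjusted p = 0.696). In the most abundant genes all ABPS libraries lay below AB0S repeats 1 and 3, and AB0S repeat 2 was close to them.

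*cut-2* had 2315, 2133 and 2219 in ABPS, against 3804, 2003 and 3269 in AB0S (log2 difference -0.39, SE 0.19, limma adjusted p = 0.339). *noah-1* had 3720.5, 3339 and 4034 in ABPS, against 5540.2, 3413 and 5097 in AB0S (log2 difference -0.31, SE 0.14, limma adjusted p = 0.311). *noah-2* had 2965, 2628 and 2917 in ABPS, against 4379, 2737 and 3971 in AB0S (log2 difference -0.36, SE 0.14, limma adjusted p = 0.289). In all 3 genes the groups overlapped.

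Values of *cut-4* and *cutl-4* lay the other way. *cut-4* had 150.2, 101 and 176 in ABPS, against 79.3, 74.8 and 91.9 in AB0S, and *cutl-4* had 11.4, 12.2 and 13.7 in ABPS, against 8.28, 6.42 and 3.33 in AB0S. Every ABPS library lay above every AB0S library in both. The log2 differences were 0.76 (SE 0.23, limma adjusted p = 0.279) for *cut-4* and 1.00 (SE 0.35, limma adjusted p = 0.279) for *cutl-4*.

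With limma, 0 of 37 genes were called, and 0 of all 19089 genes (0%). At an unadjusted p below 0.05 there were 13 of 37, 11 lower and 2 higher, and 3034 of all genes (15.9%). The log2 difference was below 0 for 30 of 37 genes, with a median of -0.45, whereas over all genes it was below 0 for 53.3%, with a median of -0.02. All ABPS libraries lay below all AB0S libraries in 17 genes (14.5% of all genes) and above them in 2 (14.9% of all genes). The 17 were *cut-5* and 16 *cutl-* genes, among them *cutl-16*, which had 729, 689.9 and 620.0 in ABPS, against 1307, 939 and 1158 in AB0S (log2 difference -0.73, SE 0.25, limma adjusted p = 0.279).

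The number of calls depended on which libraries were in the fit. In a fit of the ABPS and AB0S libraries alone, 12 genes were lower (*cut-3*, *cut-5*, *noah-1*, *noah-2* and 8 *cutl-* genes), as were 4.01% of all genes, and 1 was higher (*cut-4*). Without EV0S repeat 3, a library outside this comparison, 14 were lower, as were 5.63% of all genes, and 1 was higher (*cut-4* again). Leaving out ABPS repeat 2 gave 1 call, a count without the share of all genes beside it and so no result about the family. The epidermis and seam markers summed to 14101 to 14403 in ABPS, against 19081, 14814 and 17961 in AB0S repeats 1 to 3, without overlap. AB0S repeat 1 was also the highest AB0S library for 33 of the 37 genes, against 36.6% of all genes. Of the 9 markers 8 were below 0 and 1 above (median -0.305), and 0 were called. The part of these markers in the result was not tested.

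**Figure D2:**
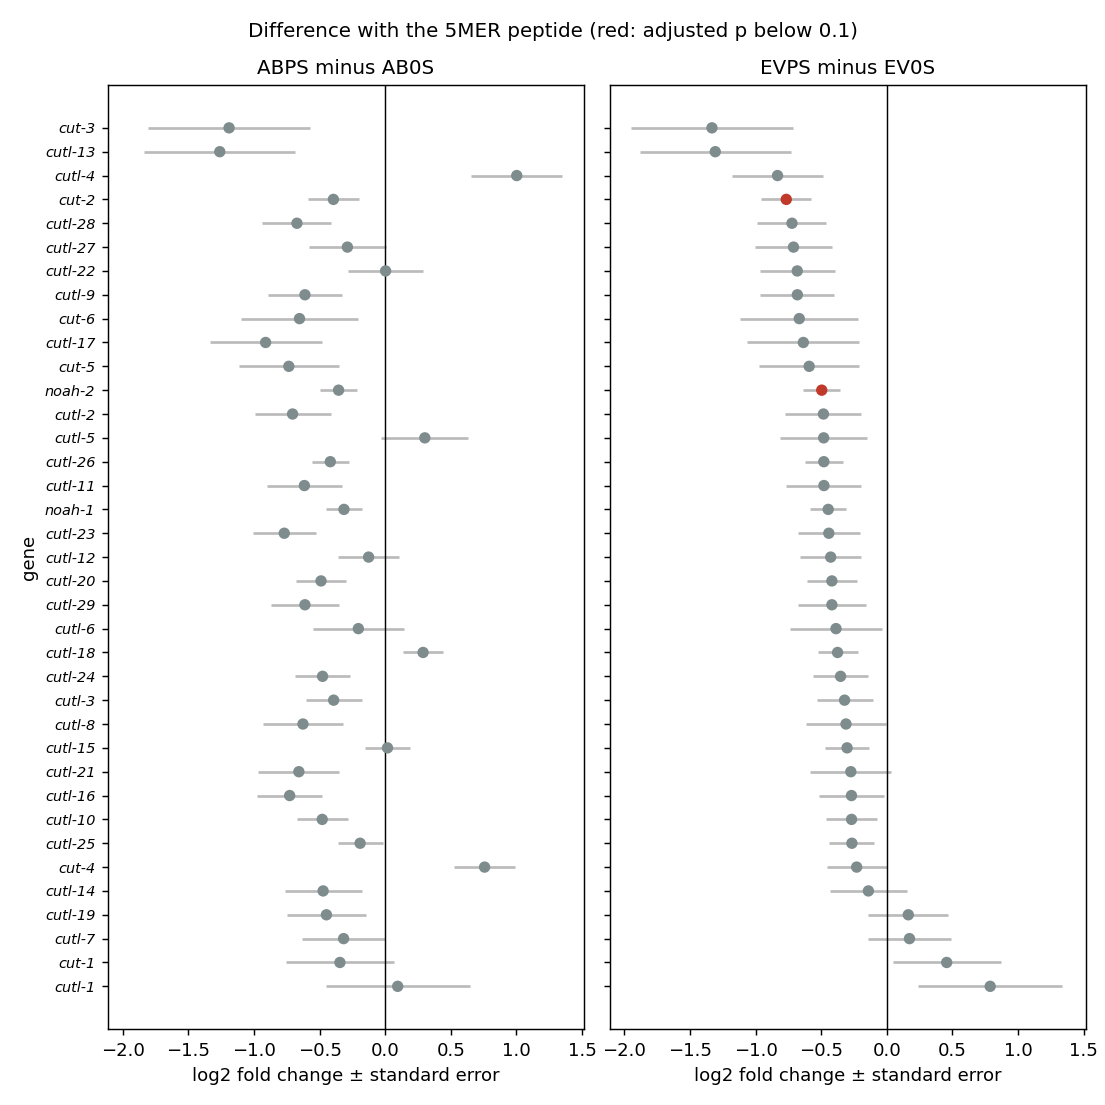
Log2 fold change ± standard error (horizontal axes) of the 37 genes for ABPS minus AB0S (left) and EVPS minus EV0S (right), with red points at an adjusted p below 0.1. Of the 37 genes, 30 lie below 0 on the left and 33 on the right, and only *cut-2* and *noah-2* on the right are red.

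The third comparison was that of Aβ RNAi in worms without the peptide (AB0S against EV0S). It shares the EV0S libraries with the first comparison and the AB0S libraries with the second. Here 4 genes were lower, namely *cut-4*, *cutl-4*, *cutl-15* and *cutl-18*, and 1 was higher, *cutl-16*. *cut-4* had 79.3, 74.8 and 91.9 in AB0S, against 208, 244 and 150.0 in EV0S. No AB0S library reached the lowest EV0S library, and the log2 difference was -1.26 (SE 0.23, limma adjusted p = 0.0303).

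The *cutl-* genes encode cuticlin-like proteins. *cutl-4* had 8.28, 6.42 and 3.33 in AB0S, against 15.4, 21.0 and 16.6 in EV0S (log2 difference -1.47, SE 0.35, limma adjusted p = 0.051). *cutl-15* had 217, 148 and 216 in AB0S, against 306, 334 and 295 in EV0S (log2 difference -0.71, SE 0.17, limma adjusted p = 0.0534). *cutl-18* had 129, 95.2 and 122 in AB0S, against 179, 161 and 172 in EV0S (log2 difference -0.57, SE 0.15, limma adjusted p = 0.0654). None of these 3 overlapped between the groups, and EV0S repeat 3 was close to EV0S repeats 1 and 2 in each.

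*cutl-16* had 1307, 939 and 1158 in AB0S, against 438, 513 and 1071 in EV0S, and its log2 difference was 0.85 (SE 0.25, limma adjusted p = 0.0802). The groups overlapped, because EV0S repeat 3 lay above AB0S repeat 2. The alae genes had the same shape, with AB0S above EV0S repeats 1 and 2 only. For *cut-3* the values given above made a log2 difference of 0.92 (SE 0.61, limma adjusted p = 0.424), for *cut-5* of 0.61 (SE 0.38, limma adjusted p = 0.392) and for *cut-6* of 0.40 (SE 0.45, limma adjusted p = 0.651). Without EV0S repeat 3 all 3 were called, at 1.84 for *cut-3*, 1.19 for *cut-5* and 1.03 for *cut-6* (limma, adjusted p = 0.00581, 0.00540 and 0.0361).

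*noah-1*, *noah-2* and *cut-2* showed small differences between AB0S and EV0S. They were 0.07 (SE 0.14, limma adjusted p = 0.827) for *noah-1*, 0.09 (SE 0.14, limma adjusted p = 0.764) for *noah-2* and -0.28 (SE 0.19, limma adjusted p = 0.436) for *cut-2*, and the groups overlapped in all 3. *cut-1* was at 0.11 (SE 0.41, limma adjusted p = 0.904).

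Of the whole table, 8.26% of genes were lower and 2.82% higher in AB0S, next to 4 of 37 (10.8%) and 1 of 37 (2.70%) in the family, shares near those of all genes. The median log2 difference of the family was 0.21, against 0.03 over all genes. AB0S lay wholly below EV0S in 5 genes, the 4 called lower and *cutl-5*, as in 14.1% of all genes, and wholly above in 0, against 12.9% of all genes. Of the fits with 1 library left out, the one without EV0S repeat 3 changed the counts most. In it 15 genes were higher and 4 lower, where 15.2% of all genes were higher and 19% lower. The 4 lower genes were again *cut-4*, *cutl-4*, *cutl-15* and *cutl-18*, and the 15 higher ones included *cut-3*, *cut-5*, *cut-6* and *cutl-16*. Leaving out EV0S repeat 1 or 2, or AB0S repeat 1 or 2, gave 0 calls, and leaving out AB0S repeat 3 gave 1. Leaving out ABPS repeat 1, which is outside the comparison, gave 3. For these fits the shares of all genes are not given, and the counts cannot be read as results about the family.

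The fourth comparison set Aβ RNAi against the empty vector in worms given the peptide (ABPS against EVPS). With limma, 0 of 37 genes were called, as 0.272% of all genes were, and 3 had an unadjusted p below 0.05, as 15.8% of all genes had. The smallest p was that of *cutl-25*, with 106.1, 125 and 109 in ABPS, against 86.1, 70.9 and 87.4 in EVPS and no overlap (log2 difference 0.47, SE 0.17, limma adjusted p = 0.24). Its values without the peptide were 135, 121 and 132 in AB0S and 82.3, 88.7 and 128 in EV0S. In 6 genes all ABPS libraries lay above all EVPS libraries (16.2% of all genes) and in 2, *cutl-7* and *cutl-10*, below them (15.1% of all genes).

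*cut-3* was at 1.06 (SE 0.61, limma adjusted p = 0.42) between ABPS and EVPS, with ABPS repeat 3 inside the EVPS range. *cut-4* was at -0.27 (SE 0.23, limma adjusted p = 0.58), *cut-5* at 0.47 (SE 0.38, limma adjusted p = 0.568) and *cut-6* at 0.42 (SE 0.45, limma adjusted p = 0.67). None of these passed the threshold. The remaining named genes were at -0.69 (SE 0.41, limma adjusted p = 0.434) for *cut-1*, 0.09 (SE 0.19, limma adjusted p = 0.834) for *cut-2*, 0.20 (SE 0.14, limma adjusted p = 0.501) for *noah-1* and 0.23 (SE 0.14, limma adjusted p = 0.442) for *noah-2*. Without EV0S repeat 3 in the fit, 4 genes were called higher in ABPS, *cut-3*, *cutl-2*, *cutl-9* and *cutl-25*, as were 8.35% of all genes.

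Whether the peptide acted differently under the empty vector and under Aβ RNAi was tested as the difference of both peptide effects, EVPS minus EV0S less ABPS minus AB0S. With limma, 0 of 37 genes were called, while 2.98% of all genes were, and 3 had an unadjusted p below 0.05, as 18.1% of all genes had. The smallest p belonged to *cutl-4*, in which every EVPS library was below its EV0S counterpart of the same number and every ABPS library above its AB0S counterpart, as in *cutl-18*. Its EVPS values were 7.93, 8.23 and 12.6, against the EV0S values given above, and the difference of effects was -1.84 (SE 0.49, limma adjusted p = 0.11). *cut-4*, with 187, 167 and 151 in EVPS, came to -0.99 (SE 0.32, limma adjusted p = 0.167). For *cut-3*, with peptide effects of -1.33 and -1.19, the difference was -0.14 (SE 0.87, limma adjusted p = 0.955). Without EV0S repeat 3, 4 genes were called, *cut-4*, *cutl-4*, *cutl-16* and *cutl-18*, next to 25.7% of all genes, and the difference for *cut-3* became 0.78 (limma, adjusted p = 0.324). Without EVPS repeat 3, 1 gene was called, and the share of all genes in that fit is not given here.

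Other genes of the cuticle were counted in lists chosen with earlier results of these data known. Beside the counts in all these lists stand the shares of all genes. In EVPS against EV0S 1.82% were lower and 5.51% higher, and in AB0S against EV0S 8.26% were lower and 2.82% higher. Of 10 other apical matrix genes, *dex-1*, a protein that shapes seam cells and anchors dendrites, and *let-4*, a leucine-rich repeat protein of the apical matrix, were lower in EVPS than in EV0S, and *egg-6* was higher. Their differences were -0.55 (SE 0.16, limma adjusted p = 0.0907), -0.43 (SE 0.13, limma adjusted p = 0.0962) and 0.37 (SE 0.09, limma adjusted p = 0.0655), and 9 of the 10 genes were below 0 (median -0.39). In AB0S against EV0S 0 of the 10 passed the test, with 2 at an unadjusted p below 0.05. In ABPS against AB0S 9 of the 10 were below 0 and 1 above (median -0.379), as most of the cuticlin family was. None was called, and 5 had an unadjusted p below 0.05, all lower, next to 15.9% of all genes in either direction.

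Of 19 body-shape collagens, 3 were lower in EVPS than in EV0S (*dpy-3*, *dpy-7* and *sqt-3*) and 11 were lower in AB0S than in EV0S (median -1.40). The 11 include *rol-6*, a mutant copy of which marks this strain's transgene. In ABPS against AB0S 12 of the 19 were above 0 and 7 below (median 0.504). None was called, and 10 had an unadjusted p below 0.05, all higher. The collagen gene *dpy-4* had 1627, 1459 and 2226 in AB0S, against 9187, 9054 and 2853 in EV0S (log2 difference -1.83, SE 0.44, limma adjusted p = 0.0534). EV0S repeat 3 was its lowest EV0S library, as it was for *cut-4*. *dpy-17*, a collagen gene named after its values were seen, had 6803, 4284 and 5448 in AB0S, against 1639.5, 1955 and 7815 in EV0S, and it was high in EV0S repeat 3 as *cut-3* was.

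Of 15 enzymes that process the cuticle, 4 were lower in AB0S than in EV0S (*nas-36*, *bli-5*, *doxa-1* and *dpy-18*) and 0 were called in EVPS against EV0S, where 2 had an unadjusted p below 0.05. Of 13 molting regulators, *blmp-1* was lower in EVPS than in EV0S, and *lin-42*, *mlt-8* and *qua-1* were lower in AB0S than in EV0S. Of 17 oocyte and early embryo genes, 13 were higher in EVPS than in EV0S (median 0.327), as were 5.51% of all genes. In ABPS against AB0S 0 of the 17 were called (median 0.001). The 32 *msp-* genes, which encode the major sperm proteins, summed to 4749 to 5330 in AB0S, against 17052, 17528 and 6473 in EV0S repeats 1 to 3, and to 13320, 6233 and 17470 in ABPS repeats 1 to 3, against 10393 to 15366 in EVPS. EV0S repeat 3 and ABPS repeat 2 were thus the low libraries of their groups for these genes. The part of these genes in the results for the cuticlins was not tested. The markers of the zygotic embryo, 13 of which are in the table, summed to 947 to 1174 in ABPS, 990 to 1188 in AB0S, 853 to 917 in EVPS and 784 to 975 in EV0S. *tbx-9* alone gave 462 to 577 of these sums. In EVPS against EV0S it was called higher (0.27, limma adjusted p = 0.0801), while 10 of the 13 were below 0 and 3 above (median -0.329). In ABPS against EVPS 12 were above 0 and 1 below (median 0.577), and 0 were called.

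**Figure D3:**
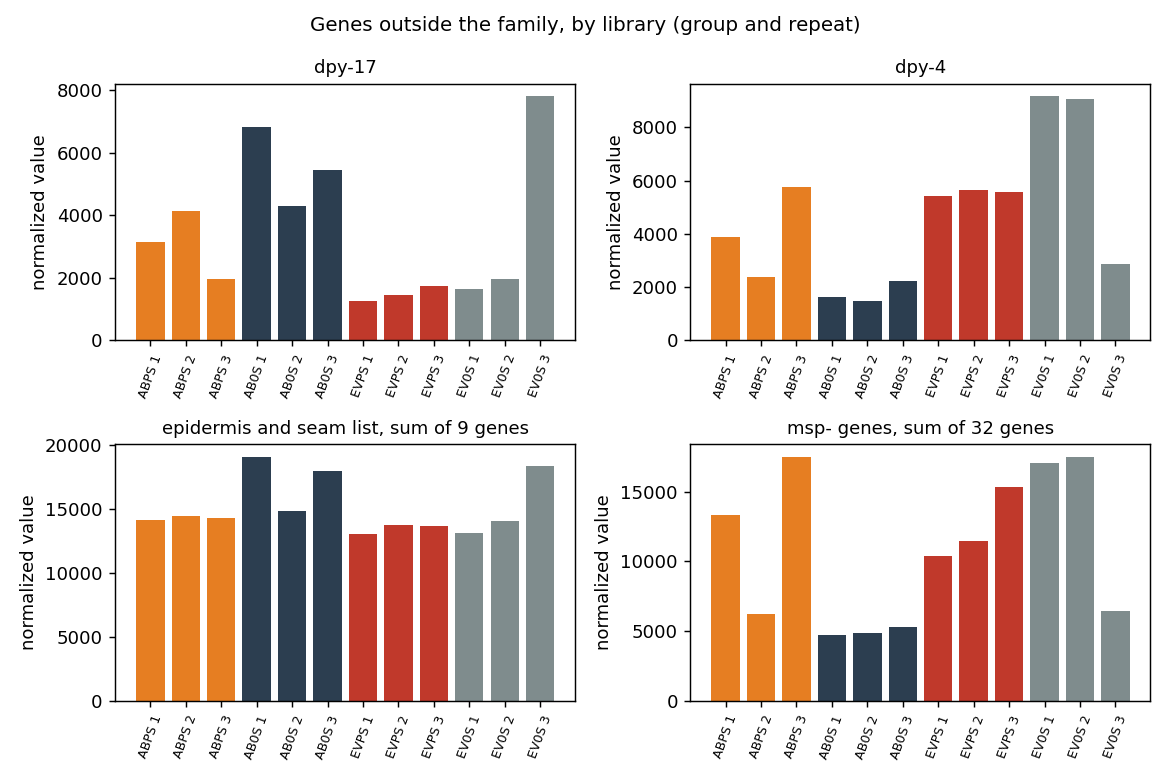
Normalized values (vertical axes, from 0) of the collagen genes *dpy-17* and *dpy-4* and summed values of the epidermis and seam markers and of the *msp-* genes, with 1 bar per library. EV0S repeat 3 is high for *dpy-17* and for the epidermis and seam markers and low for *dpy-4* and the *msp-* genes, and the AB0S libraries are on the same side, AB0S repeat 2 less so for the markers.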

How the data were processed

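Gene expression had been measured by RNA-seq of whole worms in 4 groups of 3 repeats, and all 12 deposited libraries entered the analysis. The authors trimmed the reads (fastx_toolkit and, per the submitters' processing notes, cutadapt 2.10), aligned them to WBcel235 with TopHat2 2.1.1, counted them with HTSeq 2.01 and divided the counts by DESeq2 1.36.0 size factors. What was deposited is this normalized count per gene, from which the authors had also removed the effect of the 3 repeats, by a method not given in the sources used here. They are not whole numbers, and 307 of 229068 are below 0, so no test for read counts was used and the depth is unknown. The libraries are described as independent repeats. 0 columns of values were left unused.

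Negative values were replaced by 0, a pseudocount of 1 was used on the log2 scale, and linear models of all 19089 genes were made in R 4.3.3 by limma 3.58.1 (eBayes with trend), with group and repeat number as terms, since the study corrects for the repeats. Deviations of same-numbered libraries had a mean correlation of -0.181 and of other libraries 0.092. The repeat effect had already been removed from the values, so these correlations cannot show whether same-numbered libraries were paired. The p-values were adjusted over all genes (Benjamini-Hochberg), and a gene was called when the result was below 0.1, a threshold taken from the study. An exact permutation test of 3 libraries against 3 cannot give a two-sided p below 0.1. Positions and exon lengths come from an Ensembl annotation that holds 19085 of the genes, and tables and plots were made with Python 3.11.15, pandas 2.3.3 and matplotlib 3.10.9. The fit was also run on simulated data, drawn as independent normal values without a repeat effect or an outlying library. Those runs cannot show how the calls behave with libraries such as EV0S repeat 3.

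The members, the lists and the tests were chosen with earlier results of these data known. The genes named are *cut-1* to *cut-6*, *noah-1*, *noah-2*, every member called in a comparison, the 3 members highest per kb and the member with the smallest p in each comparison, and others by mean, range or fold change only. Other settings tried were a pseudocount of 0.1 or 5, a minimum mean of 1 or 10, no replicate block, only the groups compared, quantile normalization, eBayes without trend and each library left out. Leaving out libraries outside a comparison, and both EV0S repeat 3 and ABPS repeat 2, was chosen after seeing the data.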

Additional observations from a re-analysis of the deposited data

How the results depend on the processing

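The number of genes called among the 37 moved with the processing, and the causes were not tested. The calls over all genes moved too. Where no share of all genes is given, the counts below cannot be read as results about the family. With the replicate block removed, 3 were called for EVPS against EV0S, 7 for AB0S against EV0S and 3 for the difference of the peptide effects. A minimum mean of 10 gave 4 calls for EVPS against EV0S and 1 for the difference of effects, and a pseudocount of 5 gave 1 for the difference of effects. Quantile normalization gave 1 call for EVPS against EV0S and 3 for AB0S against EV0S. eBayes without trend gave 0 for EVPS against EV0S. Fits of the compared groups alone gave 0 for EVPS against EV0S, 13 for ABPS against AB0S and 1 for AB0S against EV0S, with a spread estimated from 6 libraries. Without both EV0S repeat 3 and ABPS repeat 2 there were 16 calls for ABPS against AB0S, 20 for AB0S against EV0S and 11 for the difference of effects, where *cut-3* stood at 1.13 and was called (limma, adjusted p = 0.0668), its sign reversed. *cut-4* was then also called in EVPS against EV0S, at -0.45 (limma, adjusted p = 0.099).

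Leaving out 1 library at a time gave 0 to 4 calls for EVPS against EV0S, 0 to 15 for ABPS against AB0S, 0 to 19 for AB0S against EV0S, 0 to 4 for ABPS against EVPS and 0 to 4 for the difference of effects. The highest counts came without EV0S repeat 3, except for EVPS against EV0S, where they came without AB0S repeat 1. Without EV0S repeat 3, 19% of all genes were lower and 15.2% higher for AB0S against EV0S. In that fit 5.63% of all genes were lower for ABPS against AB0S and 8.35% higher for ABPS against EVPS. For the difference of effects 25.7% of all genes were called. Signs in the fits with 1 library left out were followed only for *cut-1* to *cut-6*, *noah-1*, *noah-2*, genes called in the comparison and *cutl-25*. For the difference of effects only *cut-3*, *cut-4* and *cutl-4* were followed. Other genes of the family may have changed sign too. Of those followed, *cut-4* ranged over -0.48 to 0.022 in EVPS against EV0S. In AB0S against EV0S the ranges were -0.11 to 0.26 for *noah-1*, -0.10 to 0.26 for *noah-2* and -0.16 to 0.50 for *cut-1*. In ABPS against EVPS they were -0.041 to 0.25 for *cut-2* and -0.093 to 0.95 for *cut-6*. The difference of effects of *cut-3* ranged over -0.88 to 0.78. Over all alternatives that kept all 37 genes, between 29 and 34 genes were below 0 for EVPS against EV0S. For ABPS against AB0S it was between 28 and 32, and the medians of these comparisons were below 0 in every alternative. For AB0S against EV0S between 7 and 20 genes were below 0, and the median ranged from -0.045 to 0.497, so its sign changed. For ABPS against EVPS the ranges were 9 to 16 genes and 0.077 to 0.282. For the difference of effects they were 11 to 26 genes and -0.208 to 0.411, again with a change of sign. Changes of a low gene are understated by the added 1, and the depth behind each value is unknown.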
